A study of Arabidopsis thaliana with 12 samples.

Results

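Galactinol synthase and raffinose synthase genes were followed in 10-day seedlings of Arabidopsis thaliana, ecotype Col-0, before and after heat. The genes were 4 galactinol synthases (GOLS1, AT2G47180; GOLS2, AT1G56600; GOLS3, AT1G09350; GOLS4, AT1G60470), raffinose synthase RS5 (AT5G40390, listed as RFS5 in the deposited table) and stachyose synthase STS (AT4G01970). They were taken by locus identifier, and all 6 were among the 32833 genes of the table. The libraries formed 4 groups of 3: atdamt1 after 2.5 h of heat, wild type (WT) after 2.5 h of heat, atdamt1 control at 0 h and WT control at 0 h. The series title concerns METTL4, an adenine methyltransferase, and the atdamt1 mutant is taken to affect its Arabidopsis homologue AT1G19340. The labels give neither the heat temperature nor the type of allele, and they list no seedlings kept for 2.5 h without heat, so heat and elapsed time cannot be told apart. Whether the 3 libraries of a group are separate sowings is not stated, so p-values reflect the spread between libraries, and some of it may be technical.

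Galactinol synthase joins a galactosyl unit from UDP-galactose to myo-inositol, which makes galactinol and commits carbon to the raffinose family of sugars. Raffinose synthase moves that galactosyl unit to sucrose to give raffinose, and stachyose synthase adds a further one. Plants accumulate these sugars under drought, cold and heat and in maturing seeds. In Arabidopsis, GOLS1 and GOLS2 are known as drought- and salt-responsive genes, GOLS1 also as a target of heat shock factors, and GOLS3 as a cold-responsive gene downstream of the DREB1 (CBF) factors.

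Depth was 21720000 to 23519000 reads per library, and values were RPKM, reads scaled to the length of the gene's exons and to the size of the library. AT1G19340 had 0.342 ± 0.173 RPKM in atdamt1 heat libraries, against 1.39 ± 0.132 RPKM in WT heat libraries, and 1.002 ± 0.251 RPKM in atdamt1 control libraries, against 2.87 ± 0.323 RPKM in WT control libraries (SD, n = 3 each). Green-tissue markers were high in every library (summed RPKM of 29151 to 39290 over 4 genes), though LHCB2.1 among them averaged 1725 RPKM in atdamt1 heat and 128 RPKM in atdamt1 control, and 1690 RPKM in WT heat and 212 RPKM in WT control libraries, while RBCS1A averaged 11522 RPKM in atdamt1 heat and 17919 RPKM in atdamt1 control, and 11569 RPKM in WT heat and 15375 RPKM in WT control libraries. The 9 seed markers each averaged below 0.5 RPKM in every group. Of the 4 flower markers, AP3, AG and PI averaged at most 0.524 RPKM in any group. SEP3 averaged 4.46 RPKM in atdamt1 heat and 6.10 RPKM in atdamt1 control libraries. In WT it averaged 9.11 RPKM in heat and 5.25 RPKM in control libraries. Both phloem companion cell markers had higher means after heat: APL averaged 4.88 RPKM in atdamt1 heat and 1.57 RPKM in atdamt1 control, and 5.55 RPKM in WT heat and 2.24 RPKM in WT control libraries. SUC2 averaged 15.3 RPKM in atdamt1 heat and 8.02 RPKM in atdamt1 control, and 13.99 RPKM in WT heat and 11.4 RPKM in WT control libraries. The summed level of 7 root markers was 322 to 377 RPKM in atdamt1 heat and 183 to 430 RPKM in WT heat libraries, against 1332 to 2036 RPKM in atdamt1 control and 1572 to 2055 RPKM in WT control libraries. Nearly all of that sum was PYK10, a beta-glucosidase gene, at means of 346 RPKM in atdamt1 heat and 1561 RPKM in atdamt1 control, and 314 RPKM in WT heat and 1818 RPKM in WT control libraries. SCR averaged 1.81 RPKM in atdamt1 heat and 9.89 RPKM in atdamt1 control, and 1.98 RPKM in WT heat and 9.98 RPKM in WT control libraries. The other 5 averaged at most 3.22 RPKM in any group and did not all follow, with SHR at 1.80 RPKM in atdamt1 heat and 1.91 RPKM in atdamt1 control libraries and IRT1 at 0.267 RPKM in WT heat and 0.0785 RPKM in WT control libraries. Chloroplast-encoded genes held 3.17% to 6.01% of the RPKM sum in atdamt1 heat and 0.390% to 4.05% in WT heat libraries, against 0.320% to 0.979% in atdamt1 control and 0.394% to 1.07% in WT control libraries. In whole seedlings, fewer cells of a type and less RNA per cell cannot be told apart. The part of these shifts in the values reported here was not tested.

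The 6 genes lie on 4 chromosomes of TAIR10.1, where GOLS2, GOLS3 and GOLS4 share chromosome 1. GOLS1 is at chr2:19368798-19370478 on the minus strand, GOLS2 at chr1:21207537-21209635 on the plus strand, GOLS3 at chr1:3019639-3021443 on the plus strand and GOLS4 at chr1:22278975-22280593 on the minus strand, each with 4 exons. RS5 is at chr5:16161449-16165453 on the plus strand with 5 exons, and STS at chr4:853922-857401 on the minus strand with 4 exons. The coding sequences of GOLS2 and GOLS3 were the most alike of the 6 galactinol synthase pairs, at 82.7% identical bases, and the other pairs lay between 68.6% and 72.8%. The longest identical stretch between any pair of their transcripts was 26 bases, in GOLS2 and GOLS3. RS5 and STS matched at 59.5% of aligned coding bases.

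Sequence before the annotated start of each gene is shown because the genes differed in their matches to the binding motif of heat shock factors, alternating GAA and TTC units. The windows are the 300 bases upstream in TAIR10.1 (RefSeq annotation), written 5′ to 3′ on the strand of the gene, at chr2:19370479-19370778 (minus) for GOLS1, chr1:21207237-21207536 (plus) for GOLS2 and chr1:22280594-22280893 (minus) for GOLS4. None overlaps another annotated gene. Capitals mark matches to GAANNTTC or TTCNNGAA.
GOLS1: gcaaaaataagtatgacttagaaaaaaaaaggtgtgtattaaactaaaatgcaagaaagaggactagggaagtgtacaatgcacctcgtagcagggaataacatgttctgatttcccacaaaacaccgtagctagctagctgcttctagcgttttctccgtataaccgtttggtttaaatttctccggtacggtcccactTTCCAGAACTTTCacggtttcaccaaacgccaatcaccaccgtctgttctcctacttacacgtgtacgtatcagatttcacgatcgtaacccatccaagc
GOLS2: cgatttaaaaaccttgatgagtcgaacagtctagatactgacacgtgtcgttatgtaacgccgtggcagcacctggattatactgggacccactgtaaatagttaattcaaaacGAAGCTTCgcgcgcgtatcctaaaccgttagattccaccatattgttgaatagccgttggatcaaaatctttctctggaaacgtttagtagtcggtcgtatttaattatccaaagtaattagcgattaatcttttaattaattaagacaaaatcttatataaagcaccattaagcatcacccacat
GOLS4: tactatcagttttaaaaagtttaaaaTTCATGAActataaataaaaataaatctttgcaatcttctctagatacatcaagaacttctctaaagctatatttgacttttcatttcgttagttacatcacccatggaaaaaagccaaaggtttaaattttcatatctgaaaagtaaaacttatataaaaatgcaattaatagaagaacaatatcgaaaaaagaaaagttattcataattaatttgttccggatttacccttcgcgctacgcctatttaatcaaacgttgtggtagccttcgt
GOLS1 held both motifs overlapping as one stretch of 3 units (TTCNNGAANNTTC, searched on both strands), 100 to 88 bases before the start. Of 27443 promoters of protein-coding genes of the same length, 133 (0.485%) held such a stretch. GOLS2 held 1 match to GAANNTTC, 186 to 179 bases before the start, a motif in 11.5% of promoters. GOLS4 held 1 match to TTCNNGAA, 274 to 267 bases before the start, a motif in 9.38% of promoters. GOLS3, RS5 and STS held neither in 300 bases, and lengthening the window to 1000 bases added no heat shock element match in any of the 6 genes.

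The window of GOLS3, at chr1:3019339-3019638 (plus), is shown with capitals on the core of the dehydration-responsive element, CCGAC or its reverse complement GTCGG, the motif bound by DREB factors.
GOLS3: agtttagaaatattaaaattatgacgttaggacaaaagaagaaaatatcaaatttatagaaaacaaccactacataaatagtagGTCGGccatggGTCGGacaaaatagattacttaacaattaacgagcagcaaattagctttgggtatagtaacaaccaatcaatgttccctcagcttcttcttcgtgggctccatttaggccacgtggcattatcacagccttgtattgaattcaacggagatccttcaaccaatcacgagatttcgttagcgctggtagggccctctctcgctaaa
GOLS3 held 2 such cores, GOLS2 and RS5 held 1 each, and GOLS1, GOLS4 and STS held none, where 13.9% of all promoters held at least 1. The abscisic acid responsive core ACGTG had 2 matches in each of GOLS1, GOLS2, GOLS3 and STS, and 25.6% of all promoters held it. In GOLS1, GOLS2 and GOLS3 those 2 matches overlap as 1 palindromic site read from both strands.

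**Figure D1:**
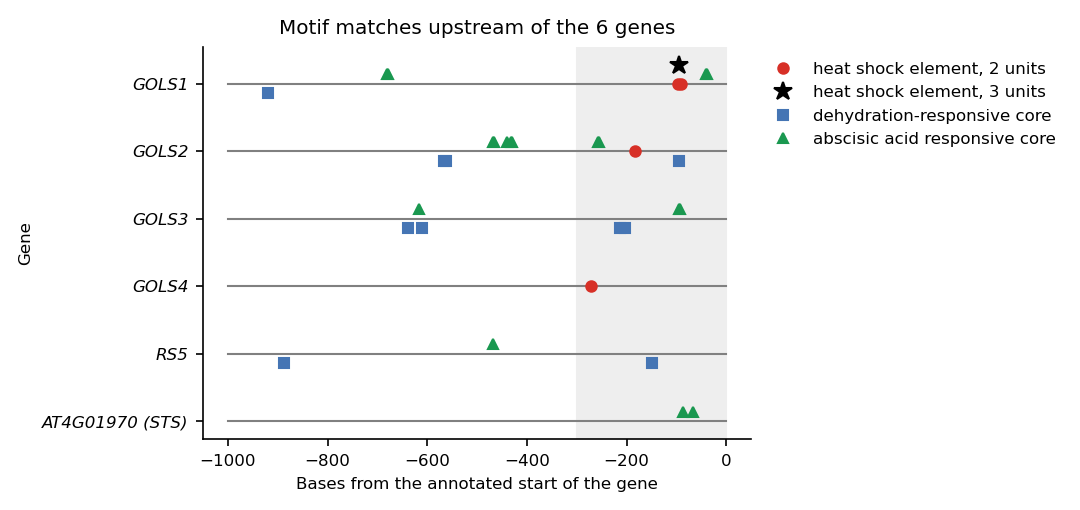
Matches to heat shock element, dehydration-responsive and abscisic acid responsive motifs upstream of the 6 genes, by distance in bases from the annotated start (x axis) and gene (y axis); the shaded band is the 300-base window. The 3-unit heat shock element lies in GOLS1 at 100 to 88 bases, and GOLS4 has a single match of any kind within 1000 bases.

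GOLS1 carried nearly all galactinol synthase RNA and rose with heat in both genotypes. It had 84.0, 191 and 60.3 RPKM in atdamt1 heat libraries, against 4.83, 3.85 and 12.3 RPKM in atdamt1 control libraries. In WT it had 228, 105 and 116 RPKM in heat libraries, against 7.61, 7.23 and 8.60 RPKM in control libraries. Every heat library lay above every control library in each genotype, and the lowest heat value was still above the highest control value, both in replicate 3 of atdamt1. A gap of this kind was found in 11.4% of tested genes in atdamt1 and 11.0% in WT. The reads behind these values numbered 1863 to 7103 per heat library and 121 to 372 per control library.

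The means of GOLS1 were 112 ± 69.5 RPKM in atdamt1 heat and 6.99 ± 4.61 RPKM in atdamt1 control libraries, a ratio of 15.99, and 150 ± 67.9 RPKM in WT heat and 7.81 ± 0.712 RPKM in WT control libraries, a ratio of 19.1 (SD, n = 3 each). On the log2(RPKM + 1) scale GOLS1 rose by 3.79 ± 0.44 in atdamt1 (SE, 95% interval 2.82 to 4.76, adjusted p = 2.03e-05, limma) and by 4.01 ± 0.44 in WT (95% interval 3.04 to 4.98, adjusted p = 1.41e-05, limma). The median gene moved by -0.44 in atdamt1 and -0.41 in WT on this scale. Limma with Benjamini-Hochberg adjustment over 17628 genes called 10.3% of genes higher and 56.2% lower with heat in atdamt1, and 9.41% higher and 52.6% lower in WT. Median-of-ratios scaling called 27.5% higher and 27.2% lower in atdamt1 and 28.7% higher and 26.7% lower in WT, the shares to set beside the list counts given under that scaling further on. Quantile normalization called 23.0% higher and 29.4% lower in atdamt1 and 22.7% higher and 26.5% lower in WT. The 3' ends of GOLS1 and of AT2G47170 (ARF1 in the table, a small GTPase gene) overlap by 43 exonic bases on opposite strands. AT2G47170 averaged 164 ± 15.7 RPKM in atdamt1 heat and 159 ± 13.5 RPKM in atdamt1 control libraries, and 186 ± 11.5 RPKM in WT heat and 165 ± 10.3 RPKM in WT control libraries, and neither heat difference passed (0.04 with adjusted p = 0.719 and 0.17 with adjusted p = 0.167, limma).

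GOLS1 made up 94.6% to 96.8% of the summed RPKM of the 4 galactinol synthases in atdamt1 heat libraries and 98.1% to 99.4% in WT heat libraries, against 87.1% to 98.4% in atdamt1 control and 85.7% to 96.9% in WT control libraries. The sum itself was 62.6 to 197 RPKM in atdamt1 heat and 107 to 229 RPKM in WT heat libraries, against 3.92 to 14.1 RPKM in atdamt1 control and 7.85 to 9.95 RPKM in WT control libraries.

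GOLS2, the second stress-responsive synthase, was also higher after heat, at a level far under that of GOLS1. It had 2.60, 3.75 and 1.19 RPKM in atdamt1 heat libraries, against 0.119, 0 and 0.672 RPKM in atdamt1 control libraries. In WT it had 1.37, 1.28 and 1.21 RPKM in heat libraries, against 0.032, 0.158 and 0.127 RPKM in control libraries. Heat and control libraries did not overlap in either genotype, a gap found in 11.4% of tested genes in atdamt1 and 11.0% in WT. The reads summed to 242 in atdamt1 heat and 25 in atdamt1 control libraries, and to 127 in WT heat and 10 in WT control libraries, and the library at 0 allows up to 0.0925 RPKM (3 reads at the mean depth of its group, counting error only). The log2 differences were 1.44 ± 0.25 in atdamt1 (SE, adjusted p = 0.000401, limma) and 1.05 ± 0.25 in WT (adjusted p = 0.00362, limma), and with 1 added to values this low they understate the ratios of the means, 9.54 and 12.2. GOLS2 met the filter of at least 1 RPKM in at least 3 libraries through its heat libraries alone, and a gene that passes in this way had to differ. With no filter on low values the adjusted p was 0.000756 in atdamt1 and 0.00565 in WT (limma), where 7.83% and 7.42% of 24782 genes were called higher.

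GOLS4 and GOLS3 had few reads, and GOLS4 was highest in atdamt1 heat libraries. GOLS4 had 1.97, 2.35 and 0.967 RPKM in atdamt1 heat libraries, against 0.066, 0.380 and 0.226 RPKM in WT heat libraries. It had 0.441, 0.033 and 0.817 RPKM in atdamt1 control libraries, against 0.034, 0.638 and 0.810 RPKM in WT control libraries. All 3 atdamt1 heat libraries lay above the other 9 libraries, while the remaining groups overlapped one another. How many genes have all 3 atdamt1 heat libraries above the other 9 was not counted. For the looser gap, with every atdamt1 heat library above every atdamt1 control library, the share was 9.69% of the 24782 genes above 0 in any library. The reads summed to 160 in atdamt1 heat, 21 in WT heat, 39 in atdamt1 control and 44 in WT control libraries.

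GOLS4 did not meet the filter and was fitted only without it. The log2 difference between heat and control was then 0.95 ± 0.27 in atdamt1 (SE, adjusted p = 0.0125, limma) and -0.26 ± 0.27 in WT (adjusted p = 0.477, limma). The atdamt1 heat libraries exceeded the WT heat libraries by 1.15 ± 0.27 on the log2 scale, a ratio of means of 7.87, with an unadjusted p of 0.00144 and adjusted p = 0.586 (limma), which did not pass. A gap of this kind, with every atdamt1 heat library above every WT heat library, was found in 1.9% of the 24782 genes above 0. The chloroplast-encoded share in the same order of replicates was 6.01%, 3.17% and 5.58% in atdamt1 heat and 0.628%, 4.05% and 0.390% in WT heat libraries, and its part in the GOLS4 difference was not tested. Of the WT heat libraries, replicate 2 had the largest share (4.05%) and the highest GOLS4 level (0.380 RPKM). Of the atdamt1 heat libraries, replicate 2 had the smallest share (3.17%) and the highest GOLS4 level (2.35 RPKM). The 3' end of GOLS4 shares 33 exonic bases with AT1G60460 on the opposite strand, which averaged 0.708 ± 0.0721 RPKM in atdamt1 heat and 0.801 ± 0.222 RPKM in WT heat libraries (SD, n = 3 each).

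GOLS3, the cold-responsive synthase, had 0.250, 0.149 and 0.146 RPKM in atdamt1 heat libraries, against 0.110, 0.029 and 0.327 RPKM in atdamt1 control libraries. It had 0, 0.359 and 0.282 RPKM in WT heat libraries, against 0.179, 0.410 and 0.412 RPKM in WT control libraries. The groups overlapped throughout, at 0 to 14 reads per library. In the fit without a filter neither heat difference passed (adjusted p = 0.841 in atdamt1 and 0.392 in WT, limma). At this depth only a large difference could have been detected.

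RS5, the raffinose synthase of Arabidopsis leaves, did not differ with heat beyond the spread between libraries. It had 10.8, 10.0 and 9.59 RPKM in atdamt1 heat libraries, against 8.77, 9.36 and 14.3 RPKM in atdamt1 control libraries. In WT it had 9.04, 12.03 and 11.4 RPKM in heat libraries, against 9.57, 11.9 and 14.5 RPKM in control libraries. Heat and control libraries overlapped in both genotypes, and replicate 3 was the highest control library in each. The log2 differences were -0.06 ± 0.18 in atdamt1 (SE, 95% interval -0.46 to 0.34, adjusted p = 0.7996, limma) and -0.12 ± 0.18 in WT (95% interval -0.52 to 0.27, adjusted p = 0.573, limma). Median-of-ratios scaling, which moved the median gene to 0.01 in both genotypes, turned these to 0.44 (adjusted p = 0.0593, limma) and 0.35 (adjusted p = 0.124, limma), so the sign of the RS5 difference depends on the scaling, and quantile normalization gave no call either (0.36 and 0.28).

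STS, which makes stachyose mainly in seeds, had at most 0.128 RPKM in any library. Its reads summed to 13 in atdamt1 heat and 13 in WT heat libraries, against 1 in atdamt1 control and 9 in WT control libraries. At 0 to 9 reads per library no difference could be read.

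**Figure D2:**
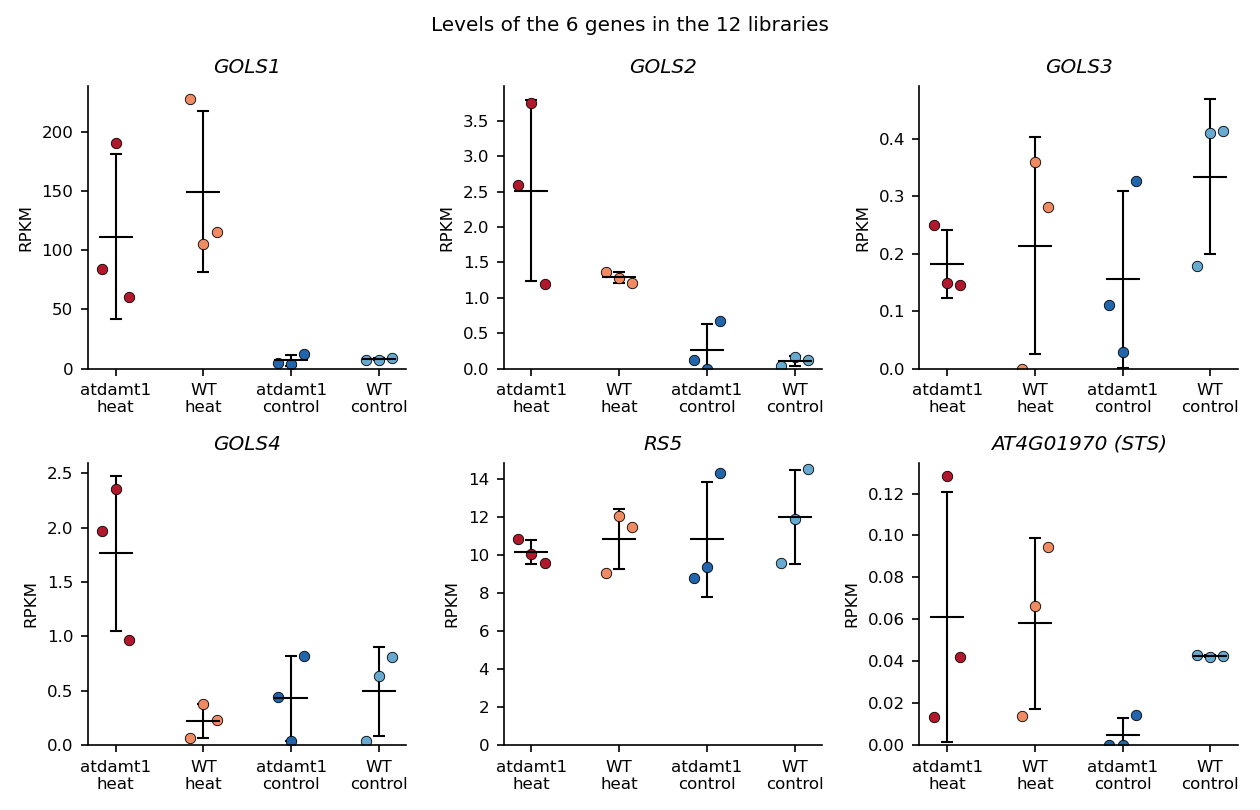
RPKM of each gene (y axes differ and start at 0) in the 4 groups, 3 libraries each; points are libraries, horizontal marks means and bars SD. GOLS1 had 60.3 to 228 RPKM in the heat libraries and 3.85 to 12.3 RPKM in the control libraries, RS5 was at 8.77 to 14.5 RPKM throughout, and GOLS4 was highest in the 3 atdamt1 heat libraries.

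RPKM is scaled by length, so the levels of the 6 genes could be ordered. In every heat library of both genotypes GOLS1 was the highest and RS5 the next, with a ratio of GOLS1 to RS5 of 6.28 to 19.01 in atdamt1 heat and 8.75 to 25.2 in WT heat libraries. In the control libraries the order of these genes was the opposite, at ratios of 0.412 to 0.859 in atdamt1 control and 0.593 to 0.795 in WT control. The other 4 genes lay below 4 RPKM everywhere. GOLS2 was above GOLS4 in every heat library of both genotypes. Across atdamt1 heat libraries their ranges overlapped (1.19 to 3.75 RPKM for GOLS2 and 0.967 to 2.35 RPKM for GOLS4). Across WT heat libraries they did not (1.21 to 1.37 RPKM for GOLS2 and 0.066 to 0.380 RPKM for GOLS4). GOLS3 overlapped GOLS4 in the WT heat libraries and in both sets of control libraries, so their order there is not beyond the spread. By mean level over the 12 libraries GOLS1 exceeded 95.7% of the genes in the table and RS5 79.0%, and STS, the lowest, 32.8%.

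**Figure D3:**
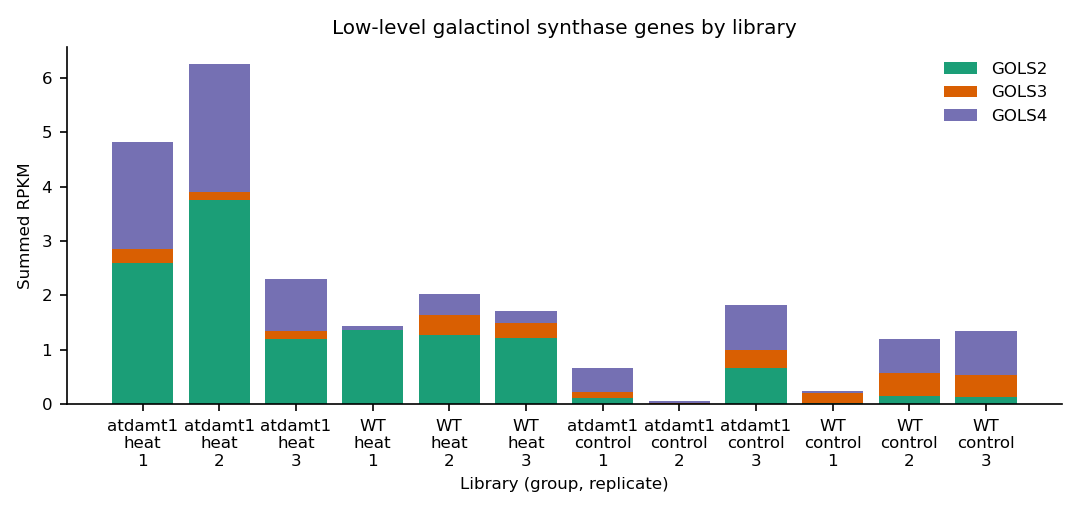
Summed RPKM of GOLS2, GOLS3 and GOLS4 (stacked, y axis from 0) in each library, by group and replicate. GOLS2 made up most of the bar in the WT heat libraries, at 1.21 to 1.37 RPKM, and GOLS2 and GOLS4 together made up most of it in the atdamt1 heat libraries.

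Between genotypes no gene of the 6 passed the test. GOLS1 was 0.50 ± 0.44 lower on the log2 scale in atdamt1 than in WT heat libraries (SE, 95% interval -1.47 to 0.47, adjusted p = 0.780, limma), and the groups overlapped. Leaving out atdamt1 replicate 2 gave -0.97, while leaving out atdamt1 replicate 3 gave -0.15 and leaving out WT replicate 1 gave -0.16. GOLS2 was 0.55 ± 0.25 higher in atdamt1 heat libraries with an unadjusted p of 0.0527 (adjusted p = 0.672, limma), and it was 0.30 without atdamt1 replicate 2 and 0.85 without atdamt1 replicate 3. RS5 differed by -0.08 ± 0.18 in heat (adjusted p = 0.923, limma). In control libraries the differences between atdamt1 and WT were -0.29 for GOLS1, 0.16 for GOLS2 and -0.15 for RS5, with adjusted p of 0.961, 0.961 and 0.945 (limma). The heat responses of atdamt1 and WT differed by -0.22 ± 0.63 for GOLS1, 0.39 ± 0.36 for GOLS2 and 0.07 ± 0.26 for RS5 on the log2 scale, with adjusted p of 0.988, 0.979 and 0.988 (limma). The interval of the GOLS1 difference in response, -1.59 to 1.16, is wide, and these values do not show that the genotypes respond alike. Limma called 0 of 3 tested members, and 0 had an unadjusted p below 0.05, in the genotype and interaction comparisons. Over all genes limma called 0.0113% in the control comparison and 0.0% in the heat comparison and the interaction, where 4.63%, 7.52% and 3.38% had an unadjusted p below 0.05.

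The heat libraries of a group differed in how far GOLS1 went up. In the order of replicates 1, 2 and 3, HSFA2, the heat-induced heat shock factor, had 554, 886 and 335 RPKM in atdamt1 heat and 1171, 642 and 707 RPKM in WT heat libraries. DREB2A, a dehydration- and heat-induced transcription factor, had 282, 356 and 216 RPKM in atdamt1 heat and 475, 303 and 315 RPKM in WT heat libraries. The 6 heat libraries stood in the same order for GOLS1, HSFA2 and DREB2A, with WT replicate 1 first and atdamt1 replicate 3 last, an order that was noticed after the values were seen. How many other genes share that order was not counted. GOLS2 and GOLS4 had another order, with atdamt1 replicates 2 and 1 first. DIN10, of the raffinose synthase family, was highest in atdamt1 replicate 3 (460 RPKM) and lowest in WT replicate 3 (369 RPKM). RS5 was lowest in WT replicate 1, where GOLS1 was highest.

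**Figure D4:**
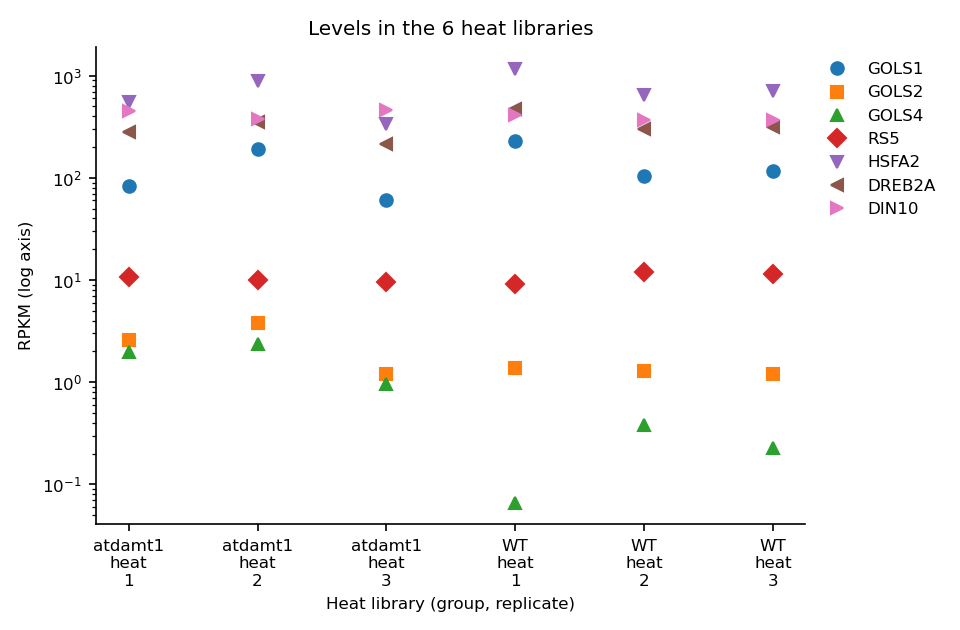
RPKM on a log axis in the 6 heat libraries (x axis, group and replicate) for GOLS1, GOLS2, GOLS4, RS5, HSFA2, DREB2A and DIN10; each point is 1 library. GOLS1, HSFA2 and DREB2A are each highest in WT replicate 1 and lowest in atdamt1 replicate 3, while RS5 stays between 9.04 and 12.03 RPKM.

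The profiles nearest to those of GOLS1 and GOLS2 were found among 17627 other tested genes, by the root mean square difference of log2(RPKM + 1) after centring each gene over the 12 libraries. HSFB2A, a class B heat shock factor, was nearest to GOLS1 (0.32), then QCR7-2, a mitochondrial cytochrome b-c1 subunit (0.35), HSFB1, another class B heat shock factor (0.35), LFG4, a LIFEGUARD family protein (0.39), and AT4G27657 (0.40). HSFB2A averaged 44.9 RPKM in atdamt1 heat and 57.4 RPKM in WT heat libraries, against 1.57 RPKM in atdamt1 control and 2.01 RPKM in WT control libraries. Nearest to GOLS2 were ATMYB102, a MYB transcription factor (0.22), AT1G72910 (0.27), AT2G07774 (0.29), AT1G54740 (0.29) and IQM4, a calmodulin-binding protein gene (0.29). ATMYB102 averaged 2.79 RPKM in atdamt1 heat and 1.47 RPKM in WT heat libraries, against 0.300 RPKM in atdamt1 control and 0.195 RPKM in WT control libraries. The 5 genes nearest to GOLS1 held no 2-unit or 3-unit heat shock element in their 300-base windows, where 19.3% of all promoters held a 2-unit element. Of the 5 nearest to GOLS2, AT1G72910 and AT2G07774 held a 2-unit element, and ATMYB102, AT1G54740 and IQM4 held none. Sets of 5 genes are too few to set against that share. Of the protein-coding genes called higher with heat, 23 of 1688 (1.36%) in atdamt1 and 26 of 1583 (1.64%) in WT held the 3-unit stretch found in GOLS1, against 90 of 17231 (0.522%) among those tested. GOLS1 itself is counted in each of these numbers, and the stretch was looked for because GOLS1 held it. The calls are those on RPKM without further scaling, and the calls under other scalings were not searched. A 2-unit element was held by 21.4% of those called higher in atdamt1 and 23.2% in WT, against 18.8% of those tested.

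The enzymes around galactinol synthase were counted by list. Of all tested genes, limma called 10.3% higher and 56.2% lower with heat in atdamt1. In WT it called 9.41% higher and 52.6% lower. A list count near these shares says nothing particular about its list. Among 10 genes of myo-inositol synthesis and oxidation, 9 were tested. With heat 4 rose, 3 fell and 2 did not pass in atdamt1, and 4 rose, 1 fell and 4 did not pass in WT, with list medians of -0.26 and 0.04 beside medians over all genes of -0.44 and -0.41. IPS2 and IPS3, inositol-3-phosphate synthases that make the precursor of myo-inositol, rose by 1.298 ± 0.20 and 1.99 ± 0.31 in atdamt1 and by 1.31 ± 0.20 and 1.33 ± 0.31 in WT (log2, SE). IPS3 averaged 15.4 ± 1.62 RPKM in atdamt1 heat and 3.47 ± 1.92 RPKM in atdamt1 control libraries, and 17.3 ± 5.8 RPKM in WT heat and 6.11 ± 0.903 RPKM in WT control libraries (SD, n = 3 each). The myo-inositol oxygenases MIOX2 and MIOX4, which draw on the same pool, rose by 2.03 ± 0.29 and 1.01 ± 0.27 in atdamt1 and by 1.92 ± 0.29 and 1.73 ± 0.27 in WT. MIOX4 reached 1 RPKM in 6 heat libraries and 1 control library, so it met the filter through the heat libraries. Under median-of-ratios scaling the counts were 4 higher and 0 lower in atdamt1 and 7 higher and 0 lower in WT, beside 27.5% higher and 27.2% lower of all genes in atdamt1 and 28.7% and 26.7% in WT, so the falls rest on the scaling.

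Among 9 genes that supply UDP-galactose and related UDP-sugars, all tested, 2 rose, 4 fell and 3 did not pass in atdamt1, and 2 rose, 1 fell and 6 did not pass in WT, with medians of -0.34 and -0.03. UGE1 and UGE3, epimerases that interconvert UDP-glucose and UDP-galactose, were the risers. UGE1 averaged 57.8 ± 0.792 RPKM in atdamt1 heat and 15.4 ± 1.998 RPKM in atdamt1 control libraries, and 55.7 ± 4.55 RPKM in WT heat and 17.9 ± 1.91 RPKM in WT control libraries (SD, n = 3 each). It rose by 1.85 ± 0.11 in atdamt1 and 1.59 ± 0.11 in WT, and UGE3 rose by 0.99 ± 0.12 and 0.69 ± 0.12 (log2, SE). USP, a UDP-sugar pyrophosphorylase, fell by 0.63 in atdamt1 and by 0.33 in WT, which became -0.15 and 0.15 with no call under median-of-ratios scaling. AT5G17310, a UDP-glucose pyrophosphorylase gene, is named UGP1 in the deposited table and is also known as UGP2. It fell by 0.41 in atdamt1, which became 0.11 with no call. In WT it differed by -0.09 (adjusted p = 0.496, limma), which became 0.40 with a call (adjusted p = 0.00884, limma). Under that scaling the list had 3 higher and 0 lower in atdamt1 and 6 higher and 0 lower in WT. Over all genes it called 27.5% higher and 27.2% lower in atdamt1, and 28.7% and 26.7% in WT. Without that scaling the shares over all genes were 10.3% higher and 56.2% lower in atdamt1. In WT they were 9.41% and 52.6%.

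Of 10 sucrose synthase and sucrose-phosphate synthase genes, 6 were tested; 2 rose, 2 fell and 2 did not pass in atdamt1, and 1 rose, 3 fell and 2 did not pass in WT, with medians of -0.19 and -0.29. SUS6, a sucrose synthase, rose by 0.77 in atdamt1 and 0.84 in WT, at means of 1.04 and 1.22 RPKM in the heat libraries. It reached 1 RPKM in 4 heat libraries and 0 control libraries, so it was tested only because it was high after heat. SUS1 rose by 0.81 in atdamt1 and differed by 0.36 in WT (adjusted p = 0.238, limma). The WT difference was called higher under median-of-ratios scaling (0.71, adjusted p = 0.0327, limma) and quantile normalization (0.88, adjusted p = 0.0117, limma). SPS4, a sucrose-phosphate synthase, fell by 1.08 in atdamt1 and by 0.64 in WT, and neither call held under median-of-ratios scaling (-0.60 and -0.19). SPS1 fell by 0.42 in atdamt1 and by 0.23 in WT, which became 0.11 with no call and 0.26 with a call in the other direction. With that scaling the list had 2 higher and 0 lower in atdamt1 and 3 higher and 0 lower in WT. Over all genes it called 27.5% higher and 27.2% lower in atdamt1, and 28.7% and 26.7% in WT. Without that scaling the shares over all genes were 10.3% higher and 56.2% lower in atdamt1. In WT they were 9.41% and 52.6%.

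The wider raffinose synthase family and the alpha-galactosidases, which remove galactosyl units from raffinose, were all tested (6 genes). In atdamt1 1 rose, 2 fell and 3 did not pass, and in WT 1 rose, 3 fell and 2 did not pass, with medians of -0.05 and -0.47. DIN10, a dark-inducible member of the raffinose synthase family, was the riser. It averaged 429 ± 44.0 RPKM in atdamt1 heat and 64.5 ± 2.63 RPKM in atdamt1 control libraries, and 384 ± 25.9 RPKM in WT heat and 69.2 ± 10.98 RPKM in WT control libraries (SD, n = 3 each), log2 differences of 2.71 ± 0.12 and 2.47 ± 0.12. The alpha-galactosidases AGAL1 and AGAL2 fell by 1.23 ± 0.09 and by 1.51 ± 0.13 in atdamt1, and by 0.97 ± 0.09 and by 1.28 ± 0.13 in WT. AGAL3 fell by 0.49 in WT, became 0.01 with no call under median-of-ratios scaling, and differed by -0.19 in atdamt1 (adjusted p = 0.204, limma), which became 0.33 with a call under that scaling (adjusted p = 0.0336, limma). That scaling gave 3 higher and 2 lower in atdamt1 and 2 higher and 2 lower in WT. Over all genes it called 27.5% higher and 27.2% lower in atdamt1, and 28.7% and 26.7% in WT. Without that scaling the shares over all genes were 10.3% higher and 56.2% lower in atdamt1. In WT they were 9.41% and 52.6%. Of 6 further genes listed with the galactinol synthase family, 1 met the filter, GATL10, which differed by -0.20 in atdamt1 and 0.40 in WT (adjusted p = 0.521 and 0.218, limma). In WT it was called higher under median-of-ratios scaling (0.72, adjusted p = 0.0390, limma) and quantile normalization (0.89, adjusted p = 0.0186, limma), and in atdamt1 it was not called under either (0.16 and 0.24).

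Among 13 heat, cold and dehydration regulators, 12 were tested; 5 rose, 4 fell and 3 did not pass in atdamt1, and 3 rose, 4 fell and 5 did not pass in WT, with medians of 0.18 and 0.16. HSFA2 averaged 592 ± 277 RPKM in atdamt1 heat and 1.66 ± 1.43 RPKM in atdamt1 control libraries, and 840 ± 289 RPKM in WT heat and 1.11 ± 0.645 RPKM in WT control libraries (SD, n = 3 each). HSFA2 and DREB2A rose by 7.81 ± 0.41 and 5.98 ± 0.28 in atdamt1 and by 8.63 ± 0.41 and 6.18 ± 0.28 in WT (log2, SE). DREB1C, a cold-responsive factor also named CBF2, rose by 1.14 in atdamt1 and 1.33 in WT. DREB1A, also named CBF3 and of the same family, fell by 1.36 in atdamt1 and by 1.11 in WT, and by 1.16 and by 0.91 under median-of-ratios scaling; it met the filter through control libraries alone. HSFA1D, a constitutive heat shock factor, fell by 1.12 in atdamt1 and by 1.11 in WT. Under median-of-ratios scaling the list had 5 higher and 3 lower in atdamt1 and 6 higher and 3 lower in WT. Over all genes it called 27.5% higher and 27.2% lower in atdamt1, and 28.7% and 26.7% in WT. Without that scaling the shares over all genes were 10.3% higher and 56.2% lower in atdamt1. In WT they were 9.41% and 52.6%. No gene of these 6 lists passed between genotypes or in the interaction, where the smallest adjusted p (limma) was 0.654 in heat libraries, 0.935 in control libraries and 0.979 for the interaction.

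**Figure D5:**
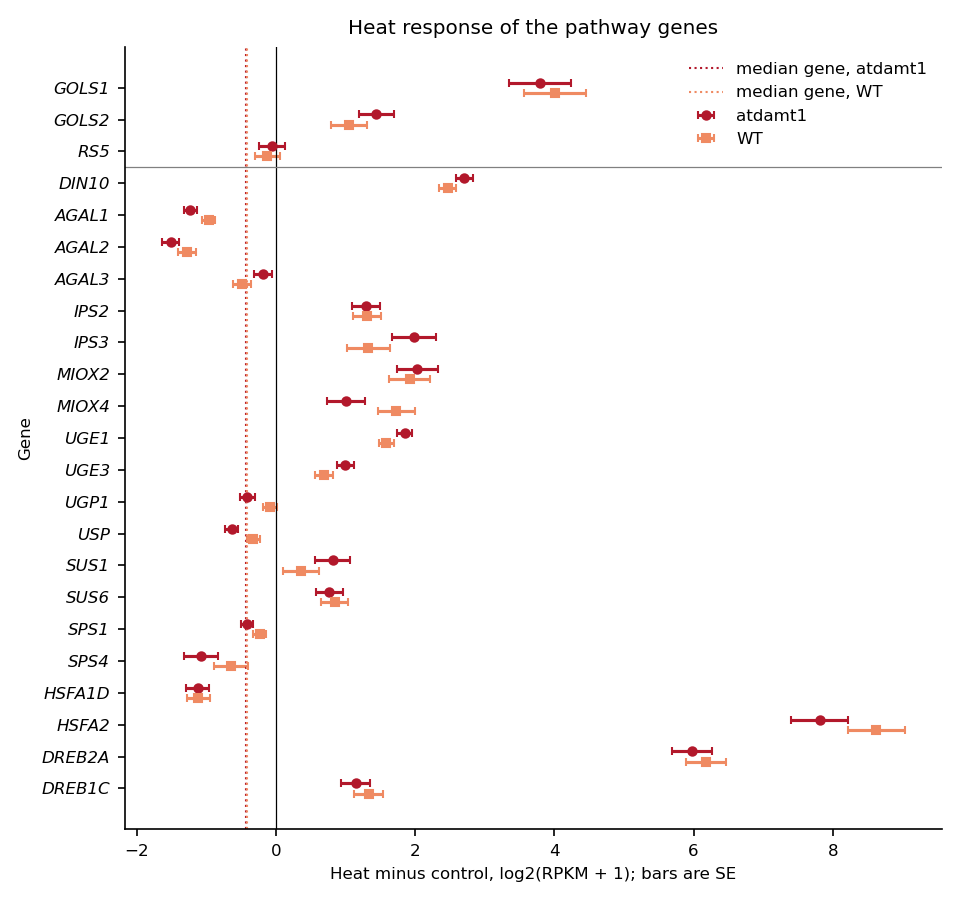
Heat minus control on the log2(RPKM + 1) scale (x axis) with SE bars for the 3 tested genes (above the line) and the named genes of the surrounding pathway lists, in atdamt1 (circles) and WT (squares); dotted lines are the median over all tested genes, -0.44 and -0.41. GOLS1 stands at 3.79 and 4.01 and RS5 at -0.06 and -0.12, with HSFA2 and DREB2A at the far right.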

How the data were processed

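Poly(A) RNA of 12 libraries was sequenced from a kit that keeps strand, per the labels' protocols. The authors deposited RPKM values for 32833 genes; per the submitters' processing notes, STAR, DESeq2 and TAIR10 were used, with no role or version recorded. The counting tool is not given in the sources used here, nor is its strand setting. RPKM times the exon length in TAIR10.1 gave whole reads (tolerance 0.1 reads) in all 12 libraries for 24374 of 24599 genes above 0 with a length. These reads were used only to describe depth, with floors of 3 reads that cover counting error only. Values were taken as log2(RPKM + 1). Genes with at least 1 RPKM in at least 3 libraries (17628) were fitted with limma 3.58.1 in R 4.3.3, with 1 mean per group over all 12 libraries, a variance trend and 8 residual degrees of freedom, two-sided, and p-values were adjusted by the Benjamini-Hochberg method over all genes tested (threshold 0.05). The fit was tested on simulated data in which a small set of genes changed, only in WT heat libraries. Such data hold no broad shift like the one with heat here, so that test does not cover it. Replicates differed beyond sampling noise (chi-square per degree of freedom 12.4 to 43.6), so each counted as 1 sample.

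The members and gene lists were chosen with earlier results of these data known. All 6 members were named throughout; of each list, up to 4 genes past the threshold with the smallest p were named, and the 5 nearest profiles for members called with heat. Genes outside this rule are the markers, AT2G47170 and AT1G60460, which overlap a member, GATL10, the tested member of its list, and DREB1A, named after its values were seen because DREB1C was. Shared replicate numbers did not pair the libraries: correlations of same-numbered deviations were -0.43 to 0.53. The alternatives were pseudocounts of 0.1 and 5, no filter and a filter of 5 RPKM, other scalings, other variance settings, single-contrast fits, a replicate block and leaving out each library. Motifs were searched with Python 3.11.15 in the TAIR10.1 sequence.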

Additional observations from a re-analysis of the deposited data

Results flagged for a closer look

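GOLS4 stood out because its heat response differed between the genotypes in the fit without a filter on low values. On the log2(RPKM + 1) scale the response in atdamt1 exceeded that in WT by 1.21 ± 0.38 (SE), with an unadjusted p of 0.0092 and adjusted p = 0.967 (limma), so it did not pass over all genes. All 3 atdamt1 heat libraries were above the 3 WT heat libraries, on 160 reads in atdamt1 heat and 21 reads in WT heat in all. Such a gap was found in 1.9% of the 24782 genes above 0 in any library. Leaving out any single library kept the difference between 0.99 and 1.45. A pseudocount of 0.1 gave 2.72 and one of 5 gave 0.38, since the size on a log scale depends on the amount added at values this low.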

How the results depend on the processing

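Of 3 tested members, both heat comparisons called 2 higher (GOLS1 and GOLS2). Over all genes 10.3% in atdamt1 and 9.41% in WT were called higher. GOLS2 was tested only through its heat libraries, so it had to differ. The count changed under both filter settings in atdamt1 and under the filter of 5 RPKM in WT. With no filter 7.83% of all genes in atdamt1 and 7.42% in WT were called higher. A filter of 5 RPKM gave 1 in atdamt1 and 1 in WT because GOLS2 was then not tested, and no filter gave 3 in atdamt1, where GOLS4 was added, and 2 in WT. Leaving out 1 library gave GOLS1 responses of 3.32 to 4.23 in atdamt1 and 3.66 to 4.21 in WT, and GOLS2 responses of 1.19 to 1.75 and 1.001 to 1.08. The counts of 0 for the genotype and interaction comparisons held under every alternative run; the interaction has no fit within a single pair of groups.

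Among the 6 genes, signs changed only for differences that were never called; list genes whose sign turned with the scaling are given with their lists. RS5 with heat in atdamt1 was 0.44 under median-of-ratios scaling, 0.36 under quantile normalization and 0.062 with array weights, and in WT 0.35 and 0.28 under those scalings. RS5 between genotypes in heat was 0.018 and 0.0025 under them, and the GOLS1 interaction was 0.052 with array weights. Leaving out 1 library gave ranges of -0.73 to 8.6e-05 for GOLS1 between genotypes in control, -0.69 to 0.22 for the GOLS1 interaction, -0.062 to 0.31 for GOLS2 between genotypes in control, -0.18 to 0.15 and -0.26 to 0.013 for RS5 with heat in atdamt1 and WT, and -0.068 to 0.27 for the RS5 interaction. The cause was not tested. With a replicate block the GOLS1 responses stayed at 3.79 and 4.01 (adjusted p = 0.000103 in atdamt1 and 7.58e-05 in WT, limma), and no member call changed. GOLS2, GOLS3, GOLS4 and STS are limited by depth, at 0 to 117 reads per library.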
